A study of Mus musculus with 3 samples.

Results

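Fatty acid oxidation was followed here through 34 genes, listed by symbol and all found among the 33696 genes of the count files. By role they were 5 genes of the carnitine shuttle, 20 of mitochondrial oxidation, 6 of peroxisomal oxidation and 3 transcriptional regulators. They were measured in mouse bone marrow that was wild type, heterozygous or homozygous for a knockout of Fabp4, in 3 droplet single-cell libraries made with the 10x Genomics 3' kit, 1 library for each genotype. The design text can be read as 2 mice pooled for each genotype. The labels give no strain, age or treatment and do not say whether the marrow carried leukaemia, a question that the series title raises. Fabp4 encodes a cytosolic fatty acid carrier known from adipocytes and macrophages.

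Mitochondria burn long-chain fatty acids only after a carnitine shuttle has carried them across the inner membrane. Each turn of the spiral then oxidises, hydrates, oxidises again and cleaves the chain, and electron transfer flavoprotein passes the electrons of the first step to the respiratory chain. Peroxisomes shorten very long and branched chains by a parallel route. In blood formation, fatty acid oxidation is best known for its part in stem cell maintenance and in neutrophil maturation.

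The libraries held 9432 (wild-type), 10718 (heterozygous) and 8115 (homozygous) barcodes with 77173735, 78426908 and 54160590 unique molecular identifiers (UMIs, counted RNA molecules). After removal of barcodes under 500 UMIs, under 200 genes or with 10% or more mitochondrial UMIs, 5604, 7957 and 4318 cells were kept. Pairs of libraries shared 21 to 26 barcodes. Fabp4, the targeted gene, had 50 (wild-type), 38 (heterozygous) and 5 (homozygous) UMIs among kept cells, so its RNA was scarce in every library. The heterozygous library stood apart. Of its kept cells 4507 had Y-linked RNA and no Xist, against 74 wild-type and 142 homozygous cells, so sex and genotype cannot be told apart across whole libraries. It also had more secondary granule RNA outside the Ltf gate described next, for example 8508 CPM (counts per 1000000 UMIs) in its monocyte gate against 1593 and 1020 CPM in the wild-type and homozygous ones.

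Cells were assigned to 4 gates read in turn. The Ltf gate (at least 20 Ltf UMIs in 10000, a secondary granule gene of maturing neutrophils) held 178, 1081 and 104 cells of the wild-type, heterozygous and homozygous libraries, the order used throughout. The Cd34 gate (at least 1 Cd34 UMI, a progenitor gene) held 905, 438 and 212 cells, and the Elane gate (at least 20 Elane UMIs in 10000, a primary granule gene) 931, 687 and 749. The monocyte gate (at least 1 UMI of both Ly6c2 and Ccr2) held 1105, 1085 and 1224 cells, and the other 2485, 4666 and 2029 cells were ungated. The gates are ranges of marker RNA and not pure cell types. Those set at 1 UMI depend on the depth of a cell. Read on counts drawn down to 2000 UMIs per cell, the Cd34 gate held 218, 108 and 53 cells. The monocyte gate then held 435, 422 and 522. Kit, a progenitor receptor gene, was at 34.5, 27.5 and 25.5 CPM in the Cd34 gate and at 42.3, 40.4 and 47.1 CPM in the Elane gate, so the Cd34 gate did not stand out by it. Adipoq, which defines adipocytes, was at 0 in 7 of the 12 gated sums and at most 0.570 CPM in the others.

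Summed over its 20 genes, mitochondrial oxidation was highest in Elane-gated cells of every library, and on library-size CPM it was lowest in Ltf-gated cells. The sums were 1175, 1098 and 1203 CPM in the Elane gate, 920, 880 and 957 CPM in the Cd34 gate, 726, 628 and 714 CPM in the monocyte gate, and 589, 547 and 511 CPM in the Ltf gate. The place of the Ltf gate depended on scaling. With the trimmed-mean (TMM) factors used in the test of gates, its sums were 688, 732 and 604 against 705, 625 and 664 in the monocyte gate, so that both gates overlapped and the heterozygous order was reversed. The Elane sums (1103, 1055 and 1101) and the Cd34 sums (832, 814 and 847) stayed above both without overlap. A single gene carried much of the Elane peak. Without Etfb, the sums were 641, 620 and 666 CPM in the Elane gate, 628, 597 and 675 CPM in the Cd34 gate, 571, 501 and 587 CPM in the monocyte gate and 476, 447 and 423 CPM in the Ltf gate, so that the Elane and Cd34 gates overlapped. With TMM factors and without Etfb, the heterozygous Ltf sum (599) was as high as its Elane sum (596). The peroxisomal sum ran in another order. It was highest in the monocyte gate of the wild-type and homozygous libraries (231 and 219 CPM) and nearly level between the monocyte and Cd34 gates of the heterozygous library (210 and 212 CPM). It was 157, 160 and 163 CPM in the Elane gate and 164, 144 and 153 CPM in the Ltf gate. With TMM factors the peroxisomal Ltf sums (192, 193 and 181) lay above the Elane sums (147, 154 and 149). The carnitine shuttle was highest in the monocyte gate of each library, at 91.2, 91.2 and 75.6 CPM, whereas with TMM factors the Ltf gate was above it in the heterozygous library (99.7 against 90.6) and level with it in the homozygous one (both 70.3).

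**Figure D1:**
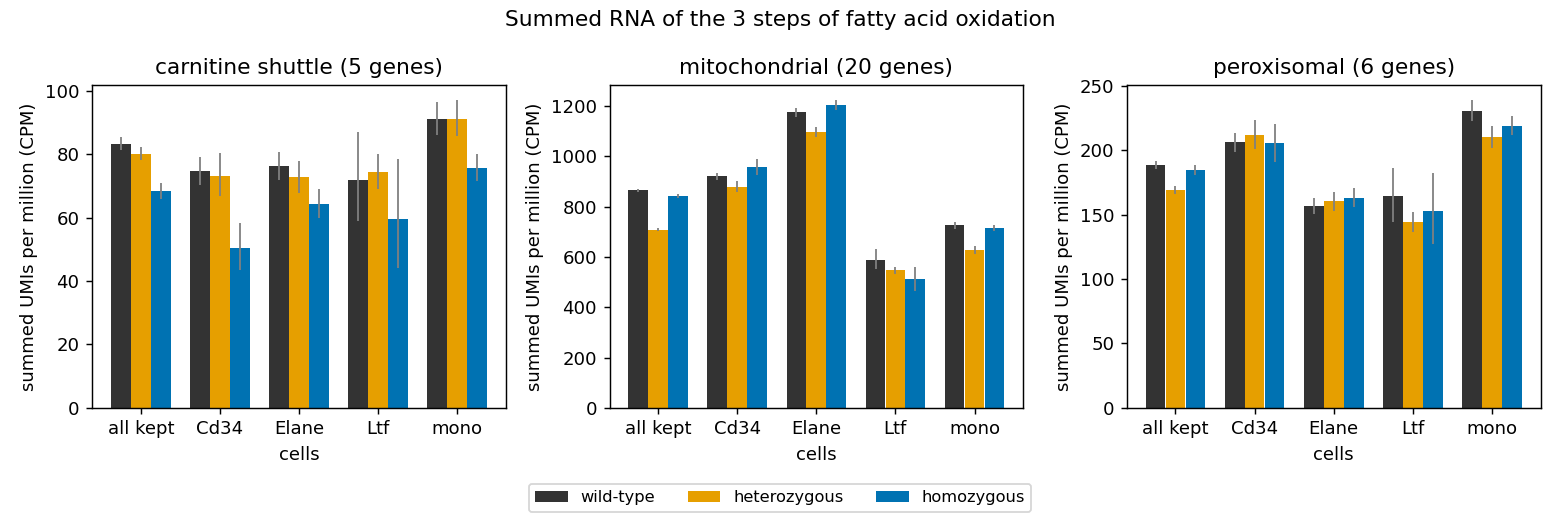
Summed CPM (UMIs per 1000000, vertical axes, linear from 0) of the carnitine shuttle, mitochondrial and peroxisomal genes in all kept cells and in each marker gate (horizontal axes), with bars for the 3 libraries and 95% exact Poisson intervals that cover counting error only. The mitochondrial bars peak in the Elane gate at 1098 to 1203 CPM, and the homozygous bar of the carnitine shuttle is the lowest of its 3 in every group of cells.

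Gene by gene, the gates were compared within libraries by edgeR's quasi-likelihood test on 12 sums (3 libraries by 4 gates) with the library as a block. A gene was called at a Benjamini-Hochberg adjusted p under 0.05 over all 13926 genes tested. Of the 34 genes, 31 passed the filter on low counts, and Ehhadh, Ppara and Ppargc1a did not. From the Cd34 to the Elane gate 5 rose and 3 fell (16.1% and 9.68% of those tested), beside 15.4% and 18% of all genes. The number that rose there depended on the gates, at 3 with gates at 10 in 10000 or gates read at 2000 UMIs and 10 with gates at 50 in 10000 or with the Elane gate read before the Cd34 gate. The Cd34 gate itself held Elane RNA, at 1972, 2201 and 2624 CPM against 6352, 4951 and 6298 CPM in the Elane gate. From the Elane to the Ltf gate 9 rose and 11 fell (29.0% and 35.5%), beside 26.2% and 30.1% of all genes. From the Elane to the monocyte gate 6 rose and 11 fell (19.4% and 35.5%), beside 28.6% and 28.3%. The monocyte gate exceeded the Ltf gate for 4 genes and lay below it for 5 (12.9% and 16.1%), beside 30.7% and 22.3%, a balance that turned to 18 and 3 with library sizes only. The median log2 differences of the members were 0.05, -0.13, -0.15 and 0.06 in these contrasts, and those of all genes were 0.03, -0.11, -0.03 and 0.13.

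The Ltf contrasts depended on scaling and on the heterozygous library. The TMM factors of the Ltf sums were 0.857, 0.747 and 0.846. Scaling by library size alone moved the median of all genes from -0.11 to -0.53 between the Ltf and Elane gates, and the calls of all genes from 3649 higher and 4185 lower to 2231 and 6547. The members then called in that contrast numbered 3 higher, not 9. For the monocyte against the Ltf gate the median moved from 0.13 to 0.51 and the calls from 4270 higher and 3109 lower to 6897 and 1838. Without the heterozygous library, which held most Ltf-gated cells, 11 of the 20 member calls between the Ltf and Elane gates remained, and Cpt1a, Slc25a20, Acadl, Acad8, Acad9, Acadsb, Acaa2, Decr1 and Eci2 lost theirs. The member calls then numbered 4 higher and 7 lower, and those of all genes 2516 higher and 2985 lower. Without it, 5 of the 9 calls between the monocyte and Ltf gates remained, and Crat, Acad8, Acadsb and Acox3 lost theirs. The calls of all genes in that contrast were then 2969 higher and 1973 lower.

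Other calls were also lost when 1 library was left out, a fit with fewer sums in which the calls of all genes fell too. Between the monocyte and Elane gates these went from 3983 higher and 3937 lower to 3404 and 2974 without the wild-type library. They were 3328 and 2915 without the heterozygous one and 3532 and 3363 without the homozygous one. Between the Elane and Cd34 gates 2144 and 2505 became 1394 and 1971, 1178 and 1790, and 1559 and 1986 in the same order. Of the 17 calls between the monocyte and Elane gates, 12 remained without the wild-type library (lost: Slc25a20, Acadl, Acad9, Acad10 and Etfa), 12 without the heterozygous one (lost: Acad9, Acaa2, Decr1, Etfa and Eci2) and 10 without the homozygous one (lost: Slc25a20, Acadl, Acad10, Acaa2, Decr1, Etfa and Eci2). Of the 20 between the Ltf and Elane gates, 17 remained without the wild-type library (lost: Slc25a20, Hadha and Etfa) and 17 without the homozygous one (lost: Acaa2, Decr1 and Etfa). The calls of all genes were then 3284 higher and 3573 lower, and 3477 higher and 3805 lower. Of the 8 between the Elane and Cd34 gates, 6 remained without the wild-type library (lost: Acadvl and Eci2), 5 without the heterozygous one (lost: Acadvl, Hadh and Eci2) and 6 without the homozygous one (lost: Acadvl and Hadh). The residual spread of the test is that between 3 libraries of different genotype.

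Within the carnitine shuttle, Cpt1a, the gene of the liver-type carnitine palmitoyltransferase at the outer membrane and the regulated entry step, was the most abundant gene. It lies at chr19:3322334-3385733 on the plus strand (GRCm38, GENCODE M21, also used for the gene positions that follow). Its level was 38.3, 36.4 and 23.4 CPM in the Cd34 gate, 41.9, 33.5 and 24.5 CPM in the Elane gate, 39.0, 34.7 and 27.9 CPM in the Ltf gate and 52.8, 54.8 and 36.7 CPM in the monocyte gate. The monocyte gate was the highest in each library, and within every gate the homozygous library was the lowest. From the Elane to the monocyte gate Cpt1a rose by 0.58 on the log2 scale (SE 0.092, edgeR adjusted p = 1.25e-04). Its rise from the Elane to the Ltf gate (0.41, SE 0.11, adjusted p = 0.0079) turned to -0.005 with library-size scaling and was not called without the heterozygous library (0.32). Slc25a20, the carnitine-acylcarnitine carrier of the inner membrane, was at 12.3, 14.5 and 9.94 CPM in the Elane gate and at 17.2, 16.4 and 14.8 CPM in the monocyte gate, a rise of 0.46 (SE 0.14, adjusted p = 0.012) that was not called without the wild-type or without the homozygous library (0.42 and 0.39).

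Crat, which moves acetyl groups onto carnitine, was at 15.1, 16.4 and 17.0 CPM in the Ltf gate and at 12.6, 12.1 and 14.3 CPM in the monocyte gate, which lay below the Ltf gate in the TMM-scaled fit (log2 -0.72, SE 0.21, edgeR adjusted p = 0.0098). That call was lost with library-size scaling (-0.34) and without the heterozygous library (-0.52). Cpt2, the inner membrane partner of Cpt1a, averaged 4.91 ± 0.736 CPM over all kept cells (SD, n = 3 libraries of different genotype) and Cpt1b, the muscle form, 4.35 ± 0.619 CPM. Neither was called in any contrast.

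The start of Cpt1a is shown because its RNA differed both between gates and between libraries. The run holds the 250 bases before the RefSeq start (GRCm38.p6, chr19:3323051-3323300, plus strand), with GC boxes (GGGCGG) and a CCAAT box, on either strand, in capitals. It lies inside the GENCODE M21 span of Cpt1a given above, which starts farther upstream.
Cpt1a: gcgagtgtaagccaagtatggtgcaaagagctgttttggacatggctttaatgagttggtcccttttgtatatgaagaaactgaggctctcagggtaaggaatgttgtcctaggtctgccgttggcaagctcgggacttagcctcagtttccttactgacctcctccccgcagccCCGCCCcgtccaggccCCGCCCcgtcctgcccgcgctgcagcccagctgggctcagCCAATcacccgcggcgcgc
Of the 34 genes, 27 had a RefSeq window of 250 bases before to 50 after the start. A GC box lay in 22 of these 27, against 35.7% of all 32851 windows, and a CCAAT box in 11 of 27, against 37.4%. The response element of PPAR receptors (AGGTCA repeated after 1 base) lay in 0 of the 27 and in 0.0396% of all windows. The ERR element TCAAGGTCA (0.423% of all windows), the PU.1 element GAGGAAGT (3.2%) and the C/EBP element TTGCGCAA (0.183%) also lay in 0 of the 27. Both strands were read. These counts describe exact letters in short windows.

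The acyl-CoA dehydrogenases, which take the first pair of electrons from the chain, split by gate. Acad11, a family member that acts on long chains (chr9:104063377-104127725, plus strand), was the one most tied to the Ltf gate. It was at 7.81, 9.87 and 6.83 CPM in the Cd34 gate, 13.5, 17.7 and 14.8 CPM in the Elane gate, 32.9, 43.5 and 33.97 CPM in the Ltf gate and 7.15, 11.4 and 5.54 CPM in the monocyte gate. The Ltf values lay above all others in each library, and no Elane value overlapped with them. It rose by 0.96 from the Cd34 to the Elane gate (SE 0.16, edgeR adjusted p = 3.83e-04) and by a further 1.63 to the Ltf gate (SE 0.16, adjusted p = 1.13e-06). The monocyte gate lay below the Elane gate at log2 -0.94 (SE 0.15, adjusted p = 9.71e-05) and below the Ltf gate at -2.57 (SE 0.16, adjusted p = 3.13e-08). In the Acad11 gene lies Ackr4, on the opposite strand. Their reads would be inseparable only if the counting ignored strand, and its strand use is not stated. In GENCODE M21, 10 other members overlap another counted gene. Acad9 (with Gm43079) and Acadsb (with Gm44982) do so on the same strand. Crat, Acadvl, Hadha, Echs1, Etfdh, Acaa1a, Acox3 and Eci2 overlap counted genes on the opposite strand only.

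Acads, the short-chain enzyme, went the other way. Its level was 40.0, 31.5 and 36.0 CPM in the Elane gate, 20.5, 15.7 and 17.0 CPM in the Ltf gate and 26.7, 20.1 and 24.6 CPM in the monocyte gate, and the Elane values lay above the other 2 gates without overlap. It fell to the Ltf gate at log2 -0.57 (SE 0.12, edgeR adjusted p = 7.65e-04) and to the monocyte gate at -0.55 (SE 0.088, adjusted p = 1.16e-04). Acad9, which also serves complex I assembly, fell in the same contrasts (-0.64 and -0.35, edgeR adjusted p = 0.0017 and 0.010), with the losses given above. Acadl, the long-chain enzyme and the most abundant dehydrogenase at 80.2 ± 3.69 CPM over all kept cells, rose to the Ltf gate by 0.51 (adjusted p = 0.0047) and to the monocyte gate by 0.32 (adjusted p = 0.028). With library-size scaling the first of these was 0.10 and not called.

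Acad8, the isobutyryl-CoA dehydrogenase of valine breakdown, was at 11.8, 12.4 and 15.8 CPM in the Elane gate, 15.1, 24.1 and 13.3 CPM in the Ltf gate and 10.5, 10.8 and 13.7 CPM in the monocyte gate. It was called higher in the Ltf than in the Elane gate (1.04, SE 0.20, edgeR adjusted p = 5.64e-04) and lower in the monocyte than in the Ltf gate (-1.19, SE 0.20, adjusted p = 2.47e-04). Both calls rested on the heterozygous library, since without it the differences were 0.43 and -0.57 and neither was called. Acadsb, the enzyme of branched short chains, rose to the Ltf gate by 0.61 (adjusted p = 0.017) and lay lower in the monocyte than in the Ltf gate (-0.59, adjusted p = 0.023), and these calls too were lost without the heterozygous library and with library-size scaling. Acad10 was low, at 5.02 ± 0.744 CPM over all kept cells. In the monocyte gate it was called below the Elane gate (-0.73, SE 0.27, adjusted p = 0.033), a call lost without the wild-type library, where the difference was larger (-0.91), and without the homozygous one (-0.34). Acadvl, the very-long-chain enzyme, rose from the Cd34 to the Elane gate at 0.37 (adjusted p = 0.049), and 11 of the 15 alternatives lost that call. Acadm, the medium-chain enzyme, was called in none of the 4 contrasts.

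Of the 6 genes of hydration, the second oxidation and thiolysis, 4 fell from the Elane to the Ltf gate and 1 rose (66.7% and 16.7%), beside 30.1% and 26.2% of all genes. Hadh, the short-chain 3-hydroxyacyl-CoA dehydrogenase (chr3:131233419-131272101, minus strand), was at 23.4, 22.1 and 28.9 CPM in the Cd34 gate, 20.1, 12.6 and 19.1 CPM in the Elane gate, 4.79, 2.79 and 3.64 CPM in the Ltf gate and 19.4, 14.9 and 18.1 CPM in the monocyte gate. The Ltf values rest on 7, 26 and 3 UMIs and lay below all others. Hadh fell from the Elane to the Ltf gate at log2 -1.83 (SE 0.22, edgeR adjusted p = 9.35e-06), and the monocyte gate exceeded the Ltf gate by 1.89 (SE 0.22, adjusted p = 8.03e-06). Its fall from the Cd34 to the Elane gate (-0.46, SE 0.13, adjusted p = 0.015) lost its call in 5 of 15 alternatives. It was -0.0632 with the Elane gate read before the Cd34 gate and -0.12 with gates at 50 in 10000, so it rested on how these gates were drawn. The other 3 values without a call were -0.34 without the heterozygous library, -0.42 without the homozygous one and -0.55 with gates read at 2000 UMIs.

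Echs1, the short-chain enoyl-CoA hydratase (chr7:140105710-140116476, minus strand), was likewise lowest in the Ltf gate, at higher levels than Hadh. It was at 91.8, 80.2 and 103 CPM in the Cd34 gate, 89.7, 83.9 and 102 CPM in the Elane gate, 35.6, 23.6 and 25.5 CPM in the Ltf gate and 74.1, 53.6 and 73.3 CPM in the monocyte gate. From the Elane gate it fell to the Ltf gate at -1.28 (SE 0.12, edgeR adjusted p = 7.72e-07) and to the monocyte gate at -0.42 (SE 0.092, adjusted p = 0.0015). The monocyte gate exceeded the Ltf gate by 0.86 (SE 0.12, adjusted p = 4.25e-05). Acaa2, the mitochondrial thiolase, was highest in the Elane gate of each library (59.7, 58.0 and 56.5 CPM) and was called in all 3 contrasts with that gate, at 0.45 over the Cd34 gate and at -0.43 and -0.28 in the Ltf and monocyte gates.

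The trifunctional protein, which joins these steps for long chains, moved little with TMM factors. Its alpha subunit gene Hadha fell from the Elane to the Ltf gate at -0.32 (edgeR adjusted p = 0.029). Over 15 alternatives that difference ranged from -0.73 to -0.15, and 5 lost the call. The beta subunit gene Hadhb was called in no contrast. On library-size CPM, Hadha averaged 57.2 ± 0.831 in the Elane gate and 33.3 ± 0.896 in the Ltf gate (SD, n = 3 libraries). Hadhb averaged 46.3 ± 6.65 and 36.4 ± 12.6 CPM, and both genes were lowest in the Ltf gate of each library. Hsd17b10, an X-linked gene whose product also belongs to mitochondrial RNase P, was the exception to the falling pattern. It was at 46.6, 44.6 and 54.4 CPM in the Elane gate, 51.4, 47.4 and 65.5 CPM in the Ltf gate and 44.7, 35.8 and 47.4 CPM in the monocyte gate. It rose to the Ltf gate by 0.55 (SE 0.10, adjusted p = 4.64e-04), a call lost with library-size scaling, and lay lower in the monocyte than in the Ltf gate (-0.70, SE 0.11, adjusted p = 8.06e-05).

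Both genes for unsaturated bonds fell from the Elane gate to the Ltf and to the monocyte gate. Eci1, an enoyl-CoA isomerase, was at 29.1, 33.6 and 41.2 CPM in the Elane gate, 15.8, 11.4 and 8.49 CPM in the Ltf gate and 17.5, 17.4 and 20.4 CPM in the monocyte gate, and the Elane values lay above both without overlap. Its differences were -1.03 (SE 0.18, edgeR adjusted p = 1.95e-04) and -0.86 (SE 0.13, adjusted p = 6.48e-05). Decr1, the 2,4-dienoyl-CoA reductase, was at 7.32, 7.17 and 12.6 CPM in the Elane gate, 4.11, 3.11 and 3.64 CPM in the Ltf gate and 6.12, 5.03 and 6.79 CPM in the monocyte gate. Its falls of -0.83 and -0.53 (SE 0.25 and 0.16, adjusted p = 0.012 and 0.014) were lost without the heterozygous or without the homozygous library.

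Electron transfer flavoprotein held the most abundant member. Etfb, its beta subunit gene (chr7:43444083-43457800, plus strand), was at 292, 283 and 283 CPM in the Cd34 gate, 534, 478 and 538 CPM in the Elane gate, 113, 99.7 and 87.3 CPM in the Ltf gate and 155, 127 and 127 CPM in the monocyte gate. The gates did not overlap, and the order Elane, Cd34, monocyte, Ltf was the same in each library. With TMM factors the Ltf and monocyte gates overlapped, at 132, 134 and 103 against 151, 126 and 118. Etfb rose by 0.91 from the Cd34 to the Elane gate (SE 0.090, edgeR adjusted p = 5.68e-06). From the Elane gate it fell to the Ltf gate at -1.95 (SE 0.10, adjusted p = 4.12e-09) and to the monocyte gate at -1.88 (SE 0.092, adjusted p = 2.26e-09). Etfb kept its calls in these 3 contrasts in all 15 alternatives.

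The other subunit did not share the rise. Etfa, the alpha subunit gene, was at 46.9, 48.4 and 57.8 CPM in the Cd34 gate and at 52.4, 55.4 and 57.4 CPM in the Elane gate, a difference of 0.17 that was not called (edgeR adjusted p = 0.17). It fell to the Ltf gate at -0.32 (adjusted p = 0.025) and to the monocyte gate at -0.26 (adjusted p = 0.025). Etfdh, the oxidoreductase that hands the electrons to ubiquinone, was at 10.4, 10.3 and 11.6 CPM in the Cd34 gate and 10.2, 13.1 and 12.4 CPM in the Elane gate. In the Ltf gate, the lowest of each library, it averaged 5.71 CPM (1.21 to 8.38), against 12.6 CPM (11.1 to 13.3) in the monocyte gate. With TMM factors its Ltf levels were 8.80, 11.2 and 1.44. Etfdh was called in no contrast, and its Ltf counts were low. Levels here are UMIs at transcript ends, which do not scale with transcript length, but capture may still differ between genes.

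Windows before the RefSeq starts of Etfb and Etfdh are shown, as the electron transfer gene that changed most and the one that was called nowhere. They cover the 250 bases before the RefSeq start, chr7:43443822-43444071 on the plus strand and chr3:79628768-79629017 on the minus strand (GRCm38.p6). The Etfdh window lies inside the GENCODE M21 span of that gene (chr3:79603788-79629500), which starts farther upstream. Capitals mark CCAAT boxes, on either strand, and in Etfdh also the NRF1 element (GCGCA followed directly by TGCGC).
Etfb: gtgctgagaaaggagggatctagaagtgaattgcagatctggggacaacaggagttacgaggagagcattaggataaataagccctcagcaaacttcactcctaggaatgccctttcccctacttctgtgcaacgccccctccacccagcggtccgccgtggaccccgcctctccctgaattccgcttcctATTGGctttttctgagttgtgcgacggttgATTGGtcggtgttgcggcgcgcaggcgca
Etfdh: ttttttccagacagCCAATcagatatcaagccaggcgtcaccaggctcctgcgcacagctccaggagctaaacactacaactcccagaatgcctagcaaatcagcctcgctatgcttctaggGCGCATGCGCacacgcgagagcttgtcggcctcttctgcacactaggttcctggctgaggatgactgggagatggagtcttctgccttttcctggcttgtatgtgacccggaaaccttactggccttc
Of the 27 member windows, 3 held the NRF1 element (Acad10, Etfdh and Ppara), against 0.971% of all windows.

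**Figure D2:**
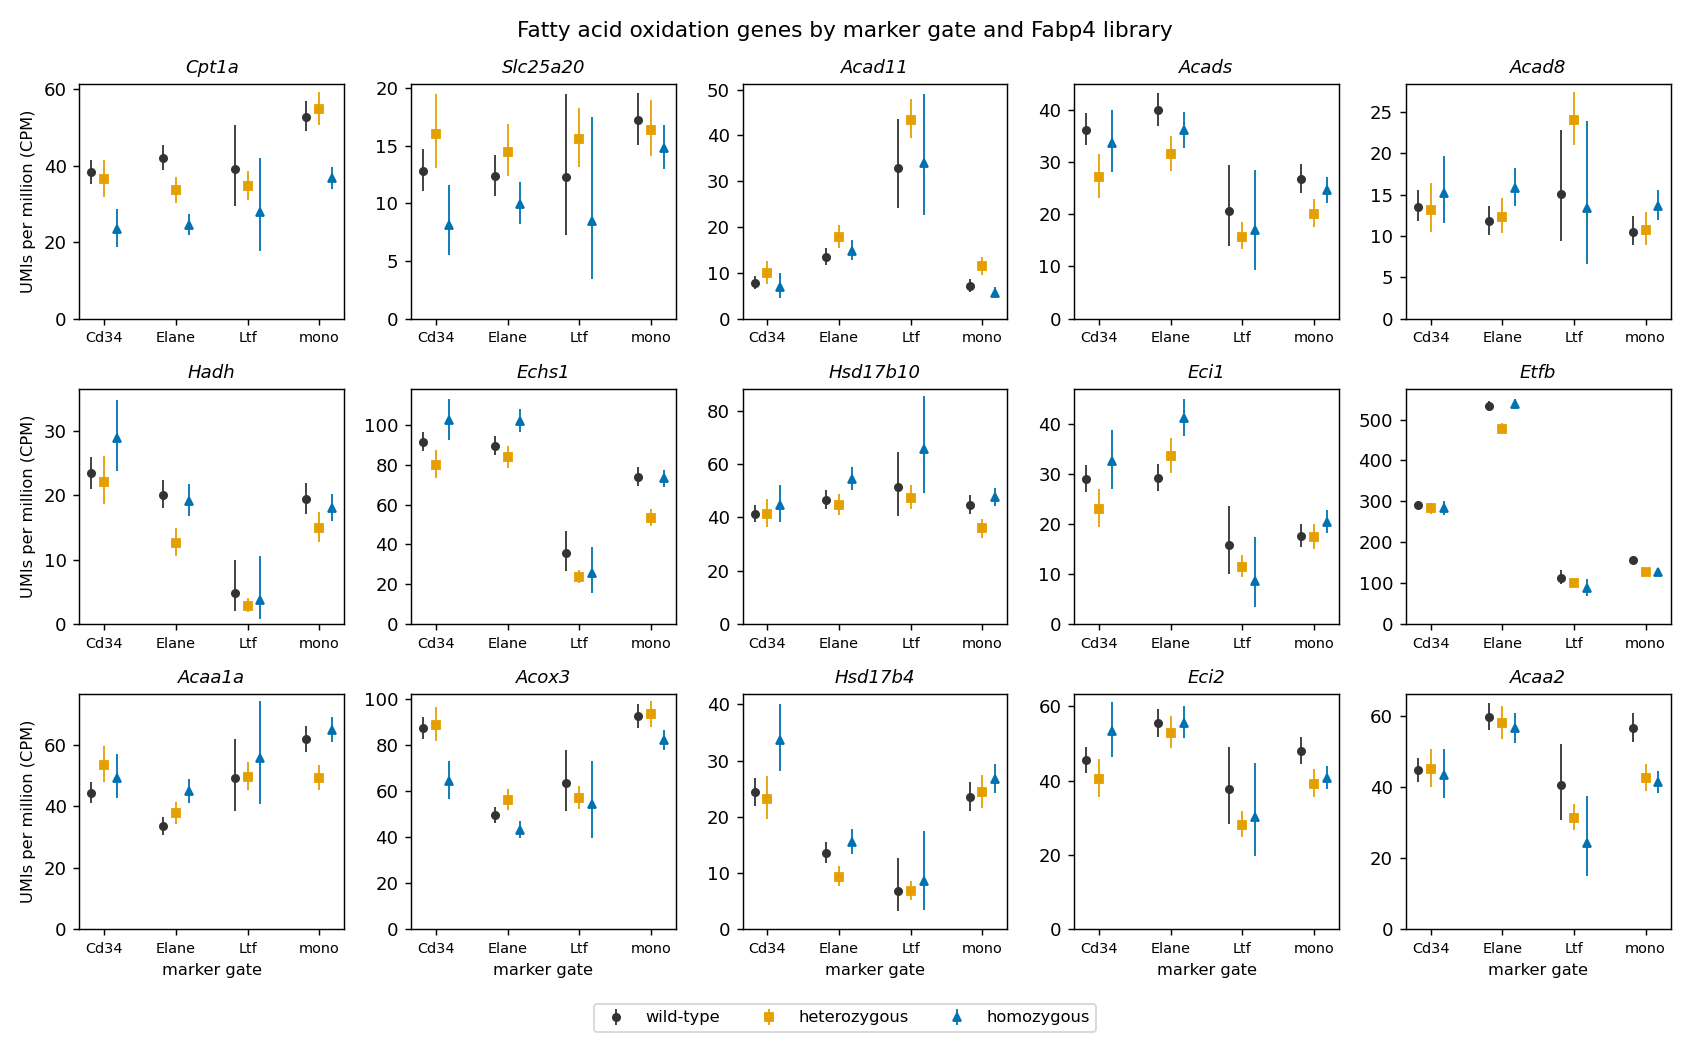
Levels of 15 fatty acid oxidation genes (vertical axes, CPM, linear from 0) in the Cd34, Elane, Ltf and monocyte gates (horizontal axes), with 1 point per library and 95% exact Poisson intervals that cover counting error only. Etfb peaks in the Elane gate at 478 to 538 CPM, Acad11 in the Ltf gate at 32.9 to 43.5 CPM, and Hadh and Echs1 are lowest in the Ltf gate.

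Among the peroxisomal genes, Acox3, an oxidase of branched chains, was the most abundant and was lowest in the Elane gate, where Etfb peaked. It was at 87.3, 88.8 and 64.4 CPM in the Cd34 gate, 49.6, 56.2 and 43.2 CPM in the Elane gate, 63.7, 57.1 and 54.6 CPM in the Ltf gate and 92.5, 93.3 and 82.1 CPM in the monocyte gate. The monocyte gate was the highest and the Elane gate the lowest in each library. Acox3 fell from the Cd34 to the Elane gate at -0.64 (SE 0.085, edgeR adjusted p = 6.61e-05) and rose from the Elane to the monocyte gate by 0.89 (SE 0.083, adjusted p = 8e-07). The monocyte gate exceeded the Ltf gate by 0.29 (SE 0.096, adjusted p = 0.022), a call lost without the wild-type or without the heterozygous library. Its rise to the Ltf gate (0.61, SE 0.098, adjusted p = 1.19e-04) shrank to 0.20 and was not called with library-size scaling.

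Hsd17b4, the bifunctional enzyme of the middle peroxisomal steps, was at 24.3, 23.2 and 33.6 CPM in the Cd34 gate, 13.5, 9.32 and 15.5 CPM in the Elane gate, 6.85, 6.77 and 8.49 CPM in the Ltf gate and 23.5, 24.4 and 26.8 CPM in the monocyte gate. The Cd34 and monocyte values lay above those of both granule gates without overlap. It fell from the Cd34 to the Elane gate at -1.01 (SE 0.14, edgeR adjusted p = 7.73e-05) and rose to the monocyte gate by 1.01 over the Elane gate (SE 0.13, adjusted p = 1.97e-05) and by 1.33 over the Ltf gate (SE 0.19, adjusted p = 5.19e-05). Acaa1a, the peroxisomal thiolase, was at 33.5, 37.7 and 44.9 CPM in the Elane gate, 49.3, 49.7 and 55.8 CPM in the Ltf gate and 62.0, 49.4 and 65.1 CPM in the monocyte gate. It rose to the Ltf gate by 0.83 (SE 0.13, adjusted p = 1.07e-04) and to the monocyte gate by 0.65 (SE 0.11, adjusted p = 2.28e-04). Acaa1b is a near-identical copy of it and Eci3 a near copy of Eci2, so reads that match both genes may be split or lost. In all kept cells Acaa1b had 6, 1 and 1 UMIs and Eci3 had 0, 2 and 2.

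Eci2, a peroxisomal isomerase, followed Etfb in direction with smaller differences, rising by 0.31 from the Cd34 to the Elane gate (edgeR adjusted p = 0.033) and falling at -0.37 and -0.32 to the Ltf and monocyte gates (adjusted p = 0.019 and 0.013). Decr2, the peroxisomal reductase, was at 3.79 ± 0.496 CPM over all kept cells and was called nowhere. Ehhadh, the other bifunctional enzyme and a marker of peroxisomal induction in liver, had 5, 5 and 1 UMIs in all kept cells.

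The regulators were at or near the floor of detection. Ppara, the fatty acid-sensing nuclear receptor, had 1, 6 and 4 UMIs in all kept cells, and Ppargc1a, a coactivator of mitochondrial genes, had 4, 11 and 5. Their gated values of 0 to 4 UMIs support no comparison at this depth. Ppargc1b, the sister coactivator, had 65, 30 and 40 UMIs. In the Elane gate it had 23, 6 and 0 UMIs, where 0 allows up to 0.245 CPM (3 counts in that sum), and in the Ltf gate it had 0 in all 3 libraries, where 0 allows up to 2.05, 0.322 and 3.64 CPM.

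Over the 12 sums, 28 of the 34 genes had at least 500 UMIs in all. The Ltf gate was the lowest of the 4 in all 3 libraries for 14 of them, beside 48.7% of all genes with that many UMIs. The Elane gate was the highest in all 3 for 6 (Acads, Acadvl, Acaa2, Eci1, Etfb and Eci2), beside 18.5%, and the monocyte gate for 3 (Cpt1a, Slc25a20 and Acox3), beside 14.8%. With TMM factors the Ltf gate was the lowest for 4 (Acad9, Hadh, Echs1 and Decr1), beside 30%, the Elane gate the highest for 7, beside 17.3%, and the monocyte gate for 2 (Cpt1a and Acox3), beside 13%.

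A further 53 genes around the pathway were counted in the same fit, of which 44 were tested. From the Cd34 to the Elane gate 10 rose and 10 fell (22.7% each), beside 15.4% and 18% of all genes. To the Ltf gate, 13 rose and 11 fell from the Elane gate (29.5% and 25%), beside 26.2% and 30.1%. To the monocyte gate, 16 rose and 11 fell from the Elane gate (36.4% and 25%), beside 28.6% and 28.3%. The monocyte gate exceeded the Ltf gate for 14 and lay below it for 11 (31.8% and 25%), beside 30.7% and 22.3%. Scp2, whose product is the sterol carrier and peroxisomal thiolase, was at 535, 522 and 565 CPM in the Ltf gate against 122, 168 and 122 CPM in the monocyte gate (log2 -2.33, SE 0.10, edgeR adjusted p = 1.98e-09). Lpin1, a phosphatidate phosphatase and coactivator, was at 2.05, 0.859 and 2.43 CPM in the Ltf gate and 10.6, 11.3 and 14.7 CPM in the monocyte gate (2.797, SE 0.41, adjusted p = 5.89e-05). Sirt3, the mitochondrial deacetylase, was at 7.53, 7.41 and 4.85 CPM in the Ltf gate and 29.3, 31.6 and 33.6 CPM in the monocyte gate (1.72, SE 0.16, adjusted p = 8.19e-07). Acss1, the mitochondrial acetyl-CoA synthetase, had 1, 15 and 0 UMIs in the Ltf gate against 89, 119 and 197 in the monocyte gate. Its fitted difference (2.46, SE 0.40, adjusted p = 1.55e-04) depends on how counts at or near 0 are treated. Pecr, a peroxisomal enoyl-CoA reductase, was lower in the monocyte than in the Elane gate at -2.10 (SE 0.24, adjusted p = 6.71e-06), and Pparg was higher there by 2.31 (SE 0.54, adjusted p = 0.0025), on 70, 104 and 87 against 52, 3 and 6 UMIs.

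Between genotypes there was 1 library each, so no test was possible and each ratio compares libraries. Both knockout comparisons share the wild-type library. Ratios are log2 of knockout over wild-type CPM with exact conditional 95% counting intervals, which leave out variation between mice. A gene was past the fold at 1.5-fold or more with 50 or more UMIs over both libraries. In all kept cells, differing shares of cell kinds and differing RNA per cell cannot be told apart.

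In the homozygous library, none of the 31 measured members was past the fold in all kept cells, beside 9.56% of all genes higher and 7.36% lower, and the median ratio was -0.01, beside 0.06 for all genes. In the Cd34 gate 0 were higher and 4 of 30 lower (13.3%), beside 7.53% and 7.69%. In the Elane gate 3 were higher and 1 lower of 30, beside 6.1% and 6.98%. In the Ltf gate 0 were higher and 2 of 14 lower, beside 4.88% and 9.59%, and in the monocyte gate 0 were higher and 1 of 30 lower, beside 10.1% and 7.08%.

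The carnitine shuttle was the step with the lowest ratio in the homozygous library. Its sum was 68.3 against 83.3 CPM in all kept cells, a log2 ratio of -0.29 (-0.35 to -0.22), and its ratio was -0.56 (-0.79 to -0.34) in the Cd34 gate, -0.24 (-0.38 to -0.11) in the Elane gate, -0.27 (-0.39 to -0.16) in the monocyte gate and -0.27 (-0.79 to 0.23) in the Ltf gate. The mitochondrial sum stayed nearer to the wild-type library, at -0.04 (-0.06 to -0.02) in all kept cells, 0.06 (0.00 to 0.11) in the Cd34 gate, 0.03 (0.00 to 0.07) in the Elane gate, -0.02 (-0.06 to 0.02) in the monocyte gate and -0.21 (-0.38 to -0.04) in the Ltf gate. The signs in the Cd34 and Elane gates turned under other settings. The peroxisomal ratio was -0.03 (-0.07 to 0.01) in all kept cells.

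Cpt1a made up most of the shuttle's difference. It was at 31.1 CPM in the homozygous against 45.4 CPM in the wild-type library over all kept cells, a log2 ratio of -0.55 (-0.64 to -0.46). The ratio was -0.71 (-1.05 to -0.39) in the Cd34 gate and -0.77 (-0.98 to -0.58) in the Elane gate, both past the fold, and -0.53 (-0.69 to -0.37) in the monocyte gate. In the Ltf gate, on 23 against 57 UMIs, it was -0.48 (-1.25 to 0.24). The sign was negative in all 4 gates. In cells with Xist and no Y-linked RNA it was nearly as large, at -0.53 over all kept cells. In cells with Y-linked RNA and no Xist it was -0.87. The heterozygous ratios of Cpt1a were nearer to 0, at -0.20 (-0.28 to -0.13) in all kept cells, -0.07 (-0.30 to 0.15) in the Cd34 gate, -0.32 (-0.51 to -0.14) in the Elane gate and 0.05 (-0.10 to 0.21) in the monocyte gate.

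The rest of the shuttle was mixed. Slc25a20 was at 8.15 against 12.8 CPM in the homozygous Cd34 gate (-0.66, -1.25 to -0.10), on 31 and 194 UMIs. Crat was at 9.20 against 14.2 CPM there (-0.62, -1.18 to -0.10), but at 20.05 against 13.3 CPM in the Elane gate (0.59, 0.32 to 0.86). Cpt2 was at 6.68 against 4.39 CPM in the Elane gate (0.61, 0.13 to 1.09). The Crat difference in the Cd34 gate ranged from -0.65 to -0.18 over the alternatives.

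Of the mitochondrial genes, Decr1 was at 12.6 against 7.32 CPM in the homozygous Elane gate (0.79, 0.43 to 1.15). Acad10 had 5 against 65 UMIs in the Cd34 gate (1.31 against 4.30 CPM, -1.71, -3.38 to -0.41) and was at 2.24 against 4.13 CPM in the monocyte gate (-0.88, -1.53 to -0.25). In the Ltf gate, Hadhb was at 26.7 against 50.7 CPM on 22 and 74 UMIs (-0.93, -1.68 to -0.22), and Acaa2 at 24.3 against 40.4 CPM had an interval that crossed 0 (-0.74, -1.55 to 0.02). Etfb was level between these libraries in the Elane gate, where it peaks (0.01, -0.04 to 0.06).

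In the heterozygous library 1 member was higher and 4 of 31 were lower in all kept cells (3.23% and 12.9%), beside 10.3% and 15.5% of all genes. The median member ratio was -0.20, beside -0.14 for all genes. Hadh was at 9.10 against 17.8 CPM (-0.97, -1.11 to -0.83), Acads at 18.9 against 29.5 CPM (-0.64, -0.74 to -0.54) and Echs1 at 47.7 against 73.9 CPM (-0.63, -0.70 to -0.57). Acad11 was at 24.2 against 12.2 CPM (0.99, 0.87 to 1.11), and Ppargc1b had 30 against 65 UMIs (-1.23, -1.91 to -0.59). The mitochondrial sum was 708 against 864 CPM (-0.29, -0.31 to -0.27). Hadh, Acads and Echs1 were lower and Acad11 was higher in the Ltf than in the Elane gate, and the Ltf gate held 13.6% of heterozygous against 3.18% of wild-type kept cells. In each gate the ratios of these 4 genes were nearer to 0. In the Elane gate Hadh was at -0.67 (-0.97 to -0.38), Acads at -0.34 (-0.54 to -0.15), Echs1 at -0.10 (-0.22 to 0.02) and Acad11 at 0.40 (0.11 to 0.68). In cells with Xist and no Y-linked RNA the ratios over all kept cells were -0.41 for Hadh, -0.38 for Acads, -0.36 for Echs1 and 0.50 for Acad11. How far gate shares or sex set the whole-library ratios was not tested.

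The heterozygous mitochondrial sum had ratios of -0.06 (-0.11 to -0.02) in the Cd34 gate, -0.10 (-0.13 to -0.06) in the Elane gate, -0.21 (-0.25 to -0.16) in the monocyte gate and -0.11 (-0.21 to -0.0018) in the Ltf gate. The Ltf value turned to 0.0415 in cells with Xist and no Y-linked RNA. Within gates, 0 of 30 members were past the fold in the heterozygous Cd34 gate, beside 6.04% of all genes higher and 5.24% lower. In the Elane gate 0 were higher and 1 of 30 lower (Hadh), beside 5.79% and 8.32%, and in the monocyte gate 1 of 30 was higher and 0 lower, beside 7.69% and 5.89%. That gene was Acad11, at 11.4 against 7.15 CPM (0.67, 0.28 to 1.07). Acad11 was highest in the Ltf gate, and the heterozygous monocyte gate held more secondary granule RNA than the wild-type one. Any link between these was not tested. In the Ltf gate 2 of 26 were higher and 2 lower, beside 8.2% and 10.4%. There Hadhb was at 31.9 against 50.7 CPM (-0.67, -1.04 to -0.28), Echs1 at 23.6 against 35.6 CPM (-0.59, -1.03 to -0.13), Acad8 at 24.1 against 15.1 CPM (0.68, 0.04 to 1.38), and Cpt2 at 5.69 against 2.74 CPM on 53 and 4 UMIs (1.05, -0.39 to 2.98). In cells with Xist and no Y-linked RNA the Acad8 ratio turned to -0.76 and that of Echs1 shrank to -0.05.

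**Figure D3:**
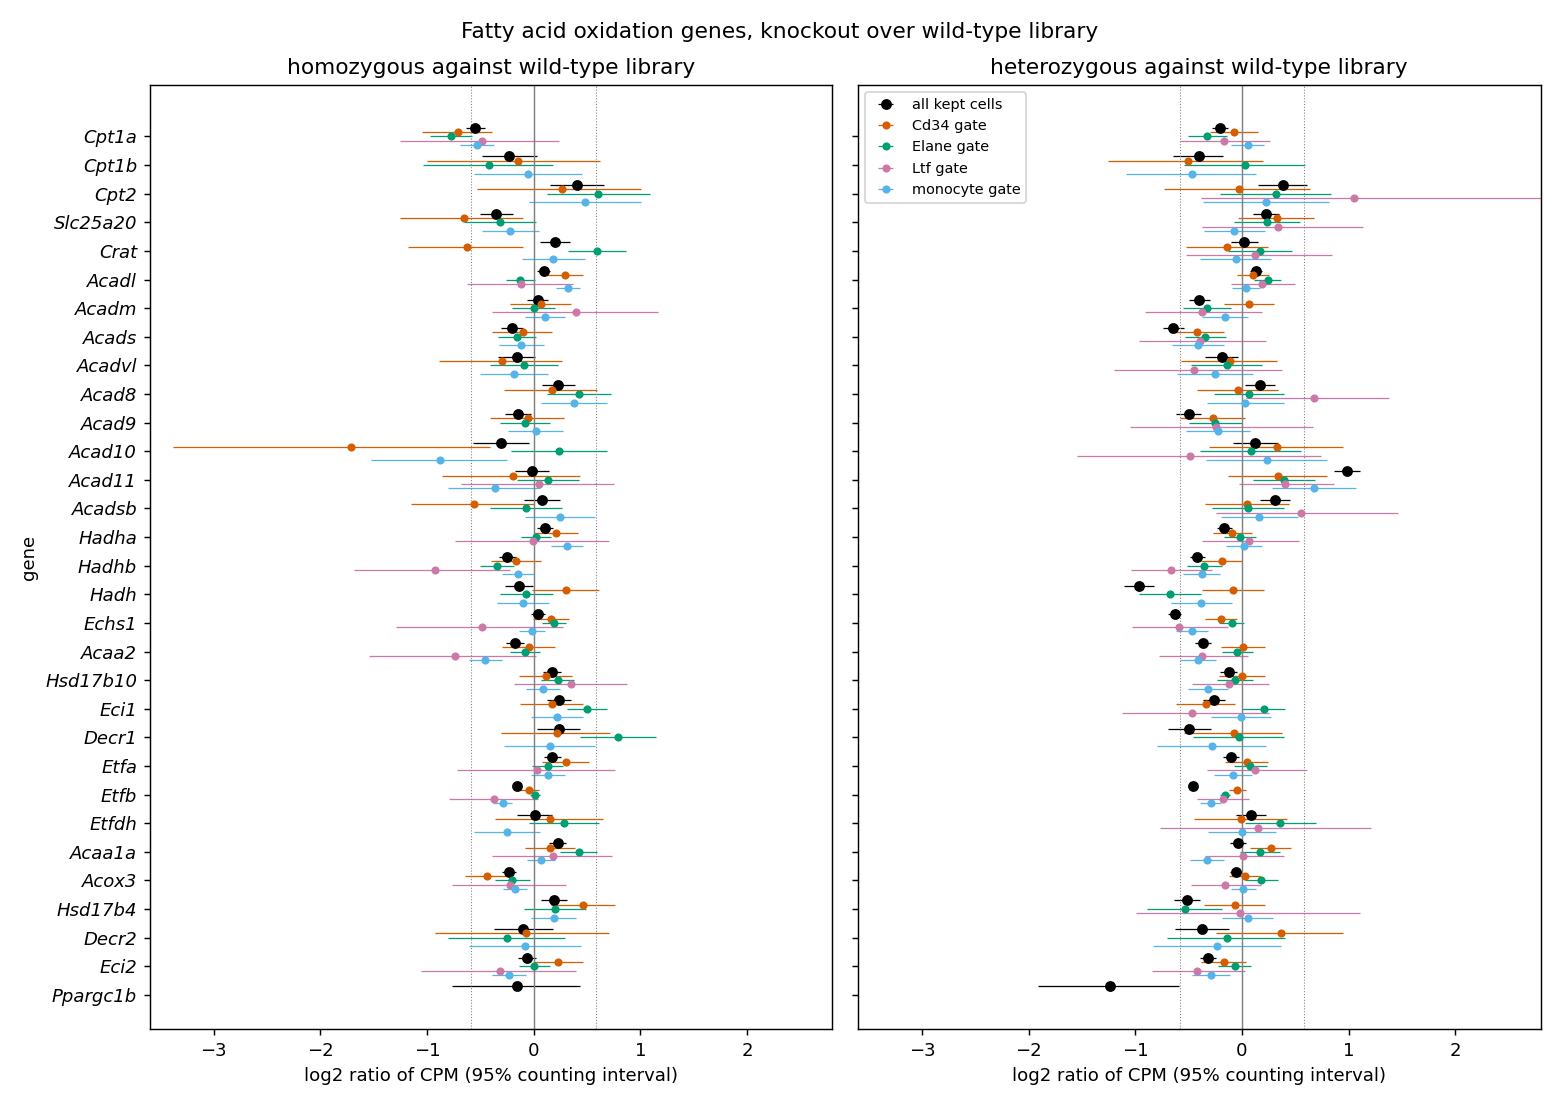
Log2 ratio of CPM, homozygous (left) and heterozygous (right) over the wild-type library (horizontal axes), for each member with 50 or more UMIs over both libraries (vertical axis), in all kept cells and in each gate, with 95% counting intervals, 1 of which runs past the right edge. Dotted lines mark 1.5-fold. The Cpt1a points of the homozygous library lie between -0.77 and -0.48, and Acad11 in all kept cells of the heterozygous library lies at 0.99.

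Of the further pathway genes, Hacl1, the peroxisomal lyase of alpha-oxidation, was lower in both knockout libraries, at 10.5 and 9.23 CPM in homozygous and heterozygous kept cells against 19.5 CPM in wild type. In the monocyte gate its ratios were -1.59 (-1.89 to -1.29) and -1.70 (-2.07 to -1.35). The other gates differed less in the homozygous library. Hacl1 was at 15.6 and 20.2 against 25.1 CPM in the Elane gate and 12.9 and 7.64 against 14.1 CPM in the Cd34 gate. In the Ltf gate it was at 8.49 and 4.51 against 9.59 CPM, on 7, 42 and 14 UMIs. Pparg had 52 UMIs in the wild-type Elane gate against 3 in the heterozygous and 6 in the homozygous one. It was not lower elsewhere in the same way. In wild-type, heterozygous and homozygous order it was at 3.31, 4.58 and 3.30 CPM in all kept cells. In the monocyte gate it was at 5.16, 9.33 and 5.42 CPM. Acsl1, Acsl5 and Hacl1 were chosen after their values were seen. Acsl1, which activates long-chain fatty acids upstream of Cpt1a, was at 112 against 176 CPM in the homozygous Elane gate (-0.66, -0.75 to -0.57) and at 94.8 against 134 CPM in the monocyte gate (-0.50, -0.60 to -0.40). In all kept cells, 2 of 45 of these genes were higher past the fold and 1 lower in the homozygous library (4.44% and 2.22%), beside 9.56% and 7.36% of all genes. In the heterozygous one 1 was higher and 7 were lower (2.22% and 15.6%), beside 10.3% and 15.5%.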

How the data were processed

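The authors deposited raw UMI counts for each gene in each barcode. The file headers name Cell Ranger 8.0.1. The submitters' processing notes also name STAR and the build mm10. The annotation release is not given in the sources used here. Of the 33696 gene IDs, 1684 are not in GENCODE M21, whereas all 34 members are, so positions come from M21 and the annotation behind the counts may differ. Per the labels' protocols, the kit was Chromium 3' v3.

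Each sample's stated genotype set its group. The members, gene lists and gates were chosen with earlier results of these data known. Cells were kept at 500 or more UMIs, 200 or more genes and a mitochondrial share under 10%. Doublets stayed in, since Scrublet's automatic threshold called 0, 1 and 3 cells and so did not work. An alternative removed its 712, 919 and 527 top-scoring barcodes. Kept cells had median depths of 10058 (wild-type), 7658 (heterozygous) and 9036.5 UMIs (homozygous).

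UMIs were summed per library and gate and given as CPM. Gates were tested with edgeR 4.0.16 in R 4.3.3 (quasi-likelihood, library block, TMM, filterByExpr, Benjamini-Hochberg over 13926 genes in each of 4 contrasts), and the code was tested on simulated counts. SE is the absolute log2 difference over the square root of F. Intervals are exact at 95% and cover counting error only. All members are accounted for by role. The 12 with the largest called differences between gates, and those past 1.5-fold between libraries with an interval clear of 0, are given in full, with at most 6 other pathway genes by size of difference and further ones marked as chosen later. Alternatives changed the normalization, tool (DESeq2 1.42.0), filters, doublets, gates, weighting, cells by sex-linked RNA, and the library left out. Other tools were Python 3.11.15, numpy 2.4.6, scipy 1.17.1, pandas 2.3.3 and scanpy 1.11.5.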

Additional observations from a re-analysis of the deposited data

Results flagged for a closer look

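In each case below the counting intervals of a gene lay on opposite sides of 0 in different gates of the same knockout over wild-type comparison. With 1 library per genotype the difference between gates was not tested. Crat was lower in the homozygous Cd34 gate (-0.62) and higher in the Elane gate (0.59). Eci1 was lower in the heterozygous Cd34 gate (-0.34) and higher in the Elane gate (0.21). Acaa1a was higher in the heterozygous Cd34 gate (0.27) and lower in the monocyte gate (-0.33).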

How the results depend on the processing

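Of the 810 alternative values of called differences between gates, 712 stayed called in the same direction, 97 were no longer called and 1 reversed, Cpt1a from the Elane to the Ltf gate with library sizes only (-0.005). Of the 229 alternative values of ratios between libraries, 209 stayed within their counting interval, 19 left it and 1 reversed, Acad8 in the heterozygous Ltf gate in cells with Xist and no Y-linked RNA (-0.76).

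The members called higher in the Elane than in the Cd34 gate numbered 3 with library sizes only, with DESeq2, with no mitochondrial limit, with gates at 10 in 10000 and with gates read at 2000 UMIs, and 10 with gates at 50 in 10000 or with the Elane gate read before the Cd34 gate, a setting added after the data were seen. Those called higher in the Ltf than in the Elane gate numbered 3 with library sizes only and 5 with gates at 50 in 10000. Those lower in the monocyte than in the Elane gate numbered 7 with gates at 10 in 10000. With library sizes only, the monocyte gate exceeded the Ltf gate for 18 members and lay below it for 3. Leaving out 1 library at a time gave 3 to 5 higher for Elane over Cd34, 4 to 10 higher and 7 to 9 lower for Ltf over Elane, 6 to 8 lower for monocyte over Elane, and 2 to 6 lower for monocyte over Ltf.

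For the homozygous library, the summed mitochondrial log2 ratio in all kept cells was -0.0599 with no mitochondrial limit, -0.15 in cells with Y-linked RNA and no Xist, -0.10 scaled by the median ratio of all genes and -0.0885 with equal weight per cell. It was 0.15 in the Cd34 gate read at 2000 UMIs and -0.0685 with Elane read first, and in the Elane gate -0.0038 with a mitochondrial share under 5% and -0.0015 with median scaling. In the monocyte gate median scaling gave -0.10. For the heterozygous library it was, in all kept cells, -0.25 with no mitochondrial limit, -0.16 in cells with Y-linked RNA only, -0.25 in cells with Xist only and -0.15 with median scaling. In its Cd34 gate it was -0.0184 with doublets removed, -0.13 read at 2000 UMIs, -0.13 with Elane read first and -0.0086 with Xist only. In its Elane gate it was -0.0646 with no mitochondrial limit, -0.063 with median scaling, -0.0645 with equal weight and -0.14 under 5%. In its Ltf gate it turned from -0.11 to 0.0415 with Xist only.

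The homozygous members past 1.5-fold in all kept cells numbered 1 with no mitochondrial limit, median scaling or equal weight, 2 with Y-linked RNA only and 3 with no minimum of UMIs. In the Cd34 gate they numbered 2 with doublets removed or Elane read first. In the Elane gate they numbered 2 with gates at 10 in 10000, gates read at 2000 UMIs or median scaling, and 7 with no minimum. In the Ltf gate they numbered 1 with gates at 10 in 10000 or Xist only, 9 with no minimum and 4 with equal weight. In the monocyte gate they numbered 0 with gates read at 2000 UMIs, 2 with median scaling and 3 with no minimum. The heterozygous members numbered, in all kept cells, 3 with no mitochondrial limit or median scaling, 13 with Y-linked RNA only and 2 with Xist only. In the Cd34 gate they numbered 1 under 5%, with doublets removed or Xist only, 4 read at 2000 UMIs and 2 with no minimum. In the Elane gate they numbered 2 under 5% or with gates at 10 in 10000, 0 with Elane read first, 5 with Xist only, 4 with no minimum and 3 with equal weight. In the Ltf gate they numbered 9 with no minimum, and in the monocyte gate 2 with Xist only or no minimum. The causes were not tested.

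No paired analysis was possible because each genotype had 1 library, so the shared replicate number pairs nothing. Cells with Y-linked RNA only gave values in all kept cells alone, since the wild-type and homozygous gates then held under 50 cells each. The levels scaled with TMM factors were likewise added after the data were seen. Depth limits the Ltf gate most, where 3 counts are 3.64 CPM in the homozygous library.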
